A study of Mus musculus with 22 samples.

Results

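The Lrrc8 genes encode the subunits of the volume-regulated anion channel, and this account follows them through splicing scores of mouse cortex. Rows were taken by gene symbol from both tables of the series. Of the 5 family genes, Lrrc8a, Lrrc8b, Lrrc8c and Lrrc8d had a row in each table, so 4 of 15705 genes at 6 months and 4 of 15192 genes at 12 months are described. Lrrc8e was not analysed here. Lrrc8c was selected on its higher score in mice with the N40K transgene, so its N40K values are given as a description with no test, and the 3 paralogues were taken by name for comparison.

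RNA was poly(A)-selected from cortex and sequenced as stranded paired-end libraries. The 6-month animals were littermates of a cross between N40K-Tg +/- and FAD +/- parents: wild type (WT), N40K, 5xFAD and dTg, which carries both the N40K and the 5xFAD transgenes, with 3 libraries in each group. The 12-month animals were littermates of Tau P301S +/- and WT parents, with 4 WT and 6 Tau P301S libraries. The N40K transgene makes a truncated, N-terminal piece of the Snrnp70 protein. That protein belongs to the U1 snRNP, the RNA and protein particle that recognises 5′ splice sites. 5xFAD carries human transgenes with Alzheimer disease mutations that lead to amyloid deposits, and Tau P301S carries a mutant human tau. The promoters of the transgenes and the sex of the animals are not given in the sources used here. The title of the study names dysfunction of the U1 snRNP in Alzheimer disease as its subject. The scores do not show transgene RNA, so genotype labels could not be checked.

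Volume-regulated anion channels open when a cell swells and let chloride and small organic solutes such as taurine and glutamate leave it. LRRC8A is the obligatory subunit, and it assembles with LRRC8B, LRRC8C, LRRC8D or LRRC8E, which set what the channel conducts. Channels with LRRC8C have been linked to the transport of cyclic dinucleotides, and channels with LRRC8D to that of larger neutral solutes. In brain, the channels are known for swelling-activated glutamate release from astrocytes.

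The measurement was the Sd score, a linear ratio per gene and library, rounded to 3 decimals. Its name is read here as splicing deficiency, with a higher value for more signal from unspliced RNA, and its formula was not given in the sources used here. Expression levels were not analysed here. A score from whole cortex cannot tell a change within cells from a change in which cells contribute the RNA. The depth behind each score is unknown.

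The introns that a score of this kind draws on differ greatly within the family. In the GENCODE M21 annotation (GRCm38), the Lrrc8c transcript had 3 introns of 24569 to 35197 bases and 86655 bases in all, 12.4 times its exons. Lrrc8a, on chromosome 2, had 3 introns of 21768 bases in all (5.06 times its exons). Lrrc8b had 4 introns of 67574 bases in all, beside 6726 bases of exons, and Lrrc8d had 2 introns of 111324 bases in all (28.4 times). Lrrc8b, Lrrc8c and Lrrc8d lie in this order on the plus strand of chromosome 5. Positions and lengths are of GRCm38, whereas the submitters' processing notes name mm9 for the scores.

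Only 1 intron interrupts the coding sequence of Lrrc8a, Lrrc8b and Lrrc8c, and the coding sequence of Lrrc8d lies in a single exon. In Lrrc8a and Lrrc8b the intron comes late, after 2157 and 2139 coding bases, whereas in Lrrc8c it comes after the first 138 of 2409. The junctions that this intron leaves in the mature transcript are shown because U1 snRNA pairs with the last bases of an exon and the first bases of the intron behind it. Each run holds the last 15 bases of the upstream exon and the first 15 of the next one, read from the GENCODE M21 transcripts (plus strand). The capitals mark the last 3 exon bases, which form the exon side of the 5′ splice site.
Lrrc8a, exon 3 to 4: gtcacagccaatAGGattgaagcgctcccc
Lrrc8b, exon 4 to 5: gtgaccaacaatAACattgagatgctacca
Lrrc8c, exon 3 to 4: ggatgtactttaCAGgtcatgcaagacaag
The upstream exon ended at base 30257332 of chromosome 2 in Lrrc8a, and at bases 105481928 and 105579609 of chromosome 5 in Lrrc8b and Lrrc8c. The next exon began at 30261848, 105485803 and 105606499, after introns of 4515, 3874 and 26889 bases. Lrrc8a and Lrrc8b shared 19 of 30 junction bases, and each of them shared 5 with Lrrc8c. The intron side of these sites was not used here.

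Other annotated genes overlap the family. The sense-intronic gene C230066G23Rik (1333 bases) lies within Lrrc8c, and Gm28035, a protein-coding model on the same strand, covers 23224 bases of Lrrc8a. The antisense gene 1700084E18Rik covers 509 bases of Lrrc8a. Lrrc8d is overlapped by the antisense gene Lrrc8dos (4216 bases) and the pseudogene Rps15a-ps5. Whether the authors' counting used strand is not given in the sources used here, and the part of these genes in the scores was not tested.

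In WT cortex at 6 months, Lrrc8a had the highest score of the family, 0.123 ± 0.00306 (SD, n = 3), above 80.4% of all genes. Lrrc8d followed with 0.01 ± 0.001, Lrrc8b with 0.00733 ± 0.00153 and Lrrc8c with 0.006 ± 0.001. The ranges of Lrrc8d (0.009 to 0.011) and Lrrc8b (0.006 to 0.009) met at 0.009, and those of Lrrc8b and Lrrc8c (0.005 to 0.007) overlapped, so the order of neighbours among these 3 was within their spread. Lrrc8c lay above 14.8% of genes. With the N40K transgene it moved from the lowest mean of the family to the second highest, above Lrrc8d and Lrrc8b in all 6 carrier libraries.

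The score of Lrrc8c was higher in both groups with the N40K transgene. It was 0.007, 0.006 and 0.005 in the 3 WT libraries and 0.037, 0.017 and 0.02 in the 3 N40K libraries. In mice with amyloid transgenes it was 0.008, 0.006 and 0.005 in 5xFAD libraries and 0.018, 0.036 and 0.016 in dTg libraries. Every carrier library lay above every other library; carriers and non-carriers did not overlap, in either direction, for 5.51% of all genes. The mean of the WT group was 0.006 ± 0.001 and that of the N40K group 0.0247 ± 0.0108; the 5xFAD mean was 0.00633 ± 0.00153 and the dTg mean 0.0233 ± 0.011 (SD, n = 3 each).

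**Figure D1:**
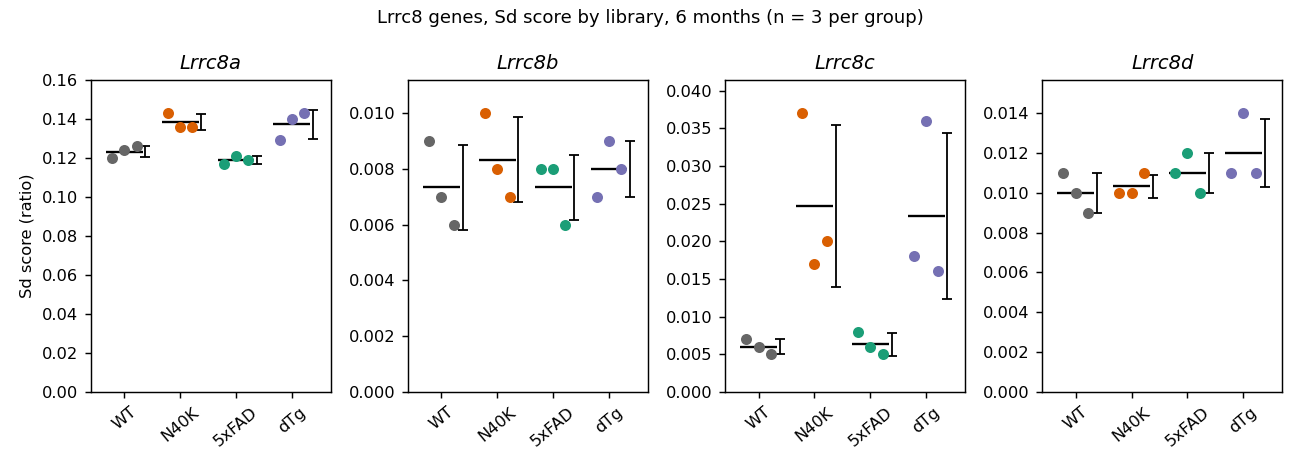
Sd score (ratio, linear axis from 0, a separate scale for each gene) of Lrrc8a, Lrrc8b, Lrrc8c and Lrrc8d in the 12 libraries of 6-month cortex; points are libraries, horizontal lines are group means and bars are the SD (n = 3). The Lrrc8c points of N40K and dTg mice lie at 0.016 to 0.037, above the 0.005 to 0.008 of WT and 5xFAD mice.

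The ratio of the mean Lrrc8c scores was 4.11 for N40K against WT and 3.68 for dTg against 5xFAD, and 3.89 for all carriers against all non-carriers. On the scale of log2(score + 0.002), where the pseudocount draws low scores together, the averaged N40K difference was 1.6, or 3.04-fold. It exceeded the difference of 99.97% of all genes. The difference in mean score, 0.0178, spanned 17.8 steps of 0.001, the step between neighbouring values of the rounded scores.

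Within each carrier group 1 library stood apart. N40K replicate 1 (0.037) and dTg replicate 2 (0.036) had about the same Lrrc8c score and were the libraries with the highest median score over all genes (0.036 and 0.035, against 0.029 to 0.033 in the other 10). Divided by the median of its own library, the Lrrc8c score was 1.03 in both, 0.485 to 0.625 in the other 4 carriers and 0.167 to 0.258 in the non-carriers. The 4 other carrier libraries, at 0.016 to 0.02, still did not overlap the non-carriers, with a mean of 0.0178 ± 0.00171 (SD, n = 4). Their difference from non-carriers was 1.28 on the log2 scale (2.43-fold). With library medians set equal over all 12 libraries, the averaged N40K difference of Lrrc8c was 1.47, against 1.6 with the medians as deposited. The part of the library medians in the size of the difference was not tested.

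**Figure D2:**
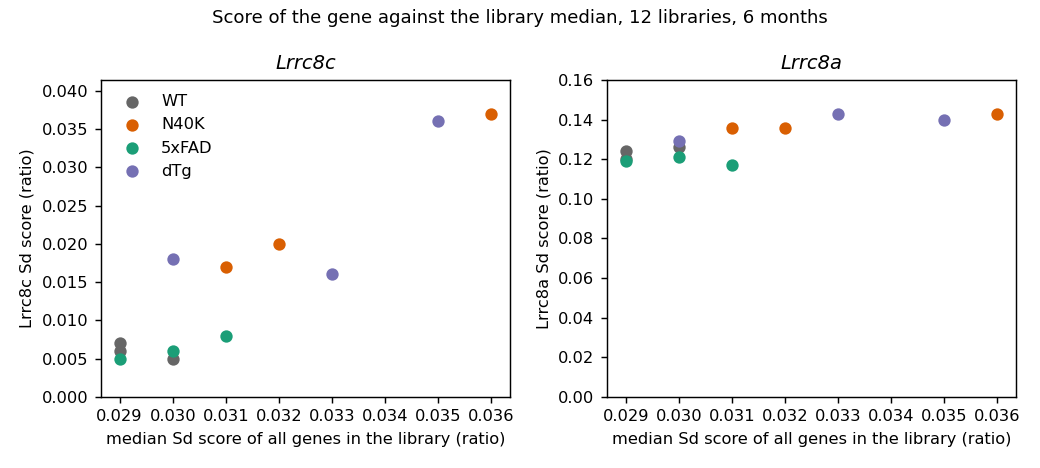
Sd score of Lrrc8c and of Lrrc8a (vertical axes, ratio, from 0) against the median score of all genes in the same library (horizontal axis, ratio) for the 12 libraries at 6 months, coloured by group. N40K replicate 1 and dTg replicate 2 are the points at the far right of both panels; for Lrrc8c the other 4 carrier libraries lie at 0.016 to 0.02.

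Lrrc8a, the obligatory channel subunit, had a slightly higher score with N40K. It was 0.12, 0.124 and 0.126 in WT and 0.143, 0.136 and 0.136 in N40K libraries, and 0.117, 0.121 and 0.119 in 5xFAD and 0.129, 0.14 and 0.143 in dTg libraries. The 6 carriers (0.138 ± 0.00534, SD, n = 6) did not overlap the 6 non-carriers (0.121 ± 0.00331, SD, n = 6), as was the case for 5.51% of all genes. Lrrc8a rose 1.13-fold (log2 change 0.18, SE 0.033, 95% interval 0.11 to 0.26; limma adjusted p = 0.0144), in a comparison in which 11.7% of all genes passed. An exact permutation test over the libraries, within each 5xFAD status, gave p = 0.005 (two-sided, 400 regroupings), the smallest p that this design allows.

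The scores of the carrier libraries were also shifted as a whole. The median change over all genes was 0.0945, and Lrrc8a lay 0.0881 above it. With library medians set equal, which moved the median change of all genes to −0.0407, the Lrrc8a difference was 0.05 and did not pass (limma adjusted p = 0.523, the highest of 19 alternatives with an adjusted p, which began at 0.00933). Without N40K replicate 1 and dTg replicate 2 it was 0.16 and passed (limma adjusted p = 0.0445). Divided by the library median, its score was 3.97 to 4.39 in carriers and 3.77 to 4.28 in non-carriers, which overlapped.

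Lrrc8b and Lrrc8d, the genes on either side of Lrrc8c, did not pass. Lrrc8b was 0.009, 0.007 and 0.006 in WT, 0.01, 0.008 and 0.007 in N40K, 0.008, 0.008 and 0.006 in 5xFAD, and 0.007, 0.009 and 0.008 in dTg libraries. Its averaged N40K difference was 0.13 (95% interval −0.12 to 0.37; limma adjusted p = 0.479), so a 1.29-fold higher score lay within the interval. Lrrc8d was 0.011, 0.01 and 0.009 in WT, 0.01, 0.01 and 0.011 in N40K, 0.011, 0.012 and 0.01 in 5xFAD, and 0.011, 0.014 and 0.011 in dTg libraries. Its difference was 0.07 (95% interval −0.08 to 0.23; limma adjusted p = 0.537), which reaches 1.17-fold. The carriers and non-carriers overlapped for both genes, with mean differences of less than 1 step of the last decimal (0.833 and 0.667 steps). With library medians set equal, the differences of both had the opposite sign, −0.01 for Lrrc8b and −0.06 for Lrrc8d, and neither passed.

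**Figure D3:**
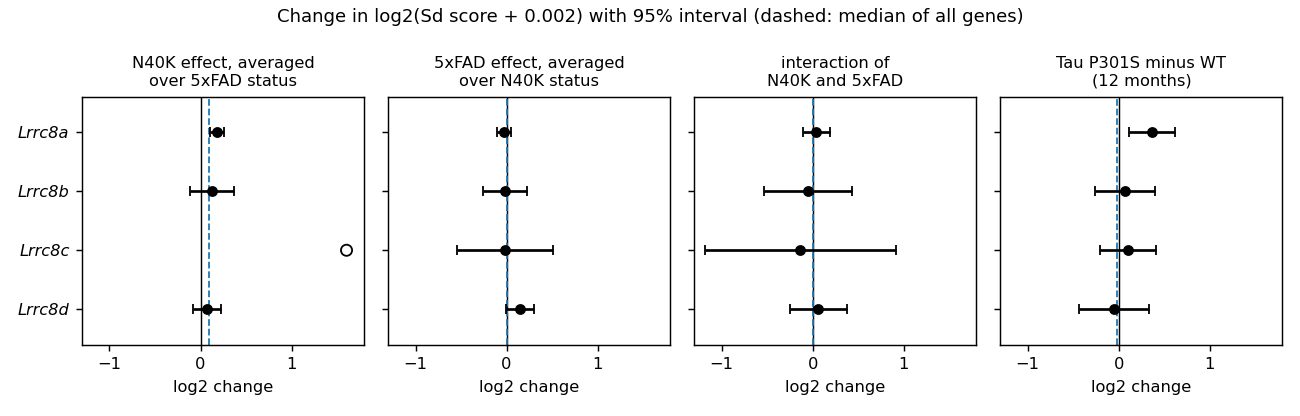
Change in log2(Sd score + 0.002) of the 4 Lrrc8 genes (horizontal axis) in 4 contrasts; filled points with bars are limma estimates with 95% intervals, the open circle is the Lrrc8c difference used to choose the gene, and the dashed line is the median change of all genes. Lrrc8a is at 0.18 and Lrrc8c at 1.6 in the N40K panel, and Lrrc8a at 0.37 in the Tau P301S panel.

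The amyloid transgenes were examined by the 5xFAD effect averaged over N40K status, a contrast that was not used to choose Lrrc8c. The interval and p of Lrrc8c still rest on a spread that includes its high carrier libraries. The SE was 0.233 with all libraries and 0.12 without N40K replicate 1 and dTg replicate 2. None of the 4 genes passed, in a comparison in which 0.0446% of all genes did (limma, adjusted p under 0.05), and none had an unadjusted p under 0.05. The Lrrc8c difference was −0.02, with a 95% interval from −0.54 to 0.51 (limma adjusted p = 1). Lrrc8d had the largest difference, 0.15 (95% interval −0.01 to 0.3; limma adjusted p = 0.815; exact permutation p = 0.105), with scores of 0.0115 ± 0.00138 with and 0.0102 ± 0.000753 without 5xFAD transgenes (SD, n = 6 each). These ranges overlapped, as did those of the other 3 genes, whereas 0.388% of all genes had no overlap. The differences of Lrrc8a (−0.03) and Lrrc8b (−0.02) were smaller, with exact permutation p = 0.3 and 0.965.

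The interaction asked whether the N40K difference was unlike on the 2 backgrounds. No Lrrc8 gene passed, against 0.0191% of all genes, and none had an unadjusted p under 0.05 (limma). For Lrrc8c the interaction was −0.13, with a 95% interval from −1.18 to 0.91 (limma adjusted p = 1), which puts the ratio of the dTg fold to the N40K fold between 0.44 and 1.88. The intervals of Lrrc8a (−0.11 to 0.19) and Lrrc8d (−0.25 to 0.37) were narrower. The SE of the Lrrc8c interaction was 0.465 with all libraries and 0.24 without N40K replicate 1 and dTg replicate 2.

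At 12 months the family had low scores in both groups, and tau carriers were compared with WT littermates. The 2 tables hold different score distributions, with library medians of 0.013 to 0.017 at 12 months, and were made separately, so levels are set side by side only as ranks. Lrrc8a was above 87% of the 12948 shared genes in 6-month WT cortex and above 29.1% of them in 12-month WT cortex. A rank lower by at least as much in the 12-month table was found in 0.355% of shared genes. Whether both tables were counted on the same gene models is not given in the sources used here. A difference in counting and one in age cannot be told apart. The other ranks were 21.6% and 16.9% for Lrrc8b, 17.8% and 4.49% for Lrrc8c, and 28.2% and 6.66% for Lrrc8d.

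Lrrc8a was higher on average in Tau P301S mice. It was 0.006, 0.006, 0.006 and 0.008 in WT libraries, and 0.007 to 0.011 with a median of 0.009 in the 6 Tau P301S libraries. The groups overlapped between 0.007 and 0.008; for 1.28% of all genes they did not. The means were 0.0065 ± 0.001 (SD, n = 4) and 0.009 ± 0.00141 (SD, n = 6), a difference of 2.5 steps of the last decimal. The log2 change was 0.37 (1.29-fold, SE 0.111, 95% interval 0.12 to 0.62) and did not pass over all genes (limma adjusted p = 0.422), where 0.00658% did. Its unadjusted limma p was 0.00895, in a comparison in which 8.28% of all genes had an unadjusted p under 0.05. An exact permutation test of this gene alone gave p = 0.019 (two-sided, 210 regroupings), as 1 of 11 such tests computed for the family.

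**Figure D4:**
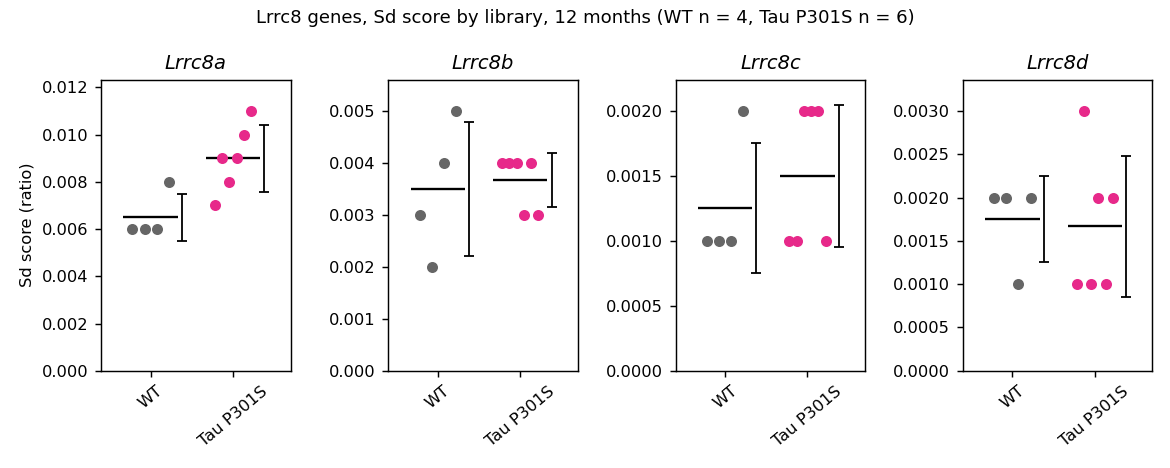
Sd score (ratio, linear axis from 0, a separate scale for each gene) of the 4 Lrrc8 genes in 12-month cortex; points are libraries, horizontal lines are means and bars are the SD (WT n = 4, Tau P301S n = 6). Scores of Lrrc8b, Lrrc8c and Lrrc8d take only a few values because they were rounded to 0.001; Lrrc8a lies at 0.006 to 0.008 in WT and 0.007 to 0.011 in Tau P301S mice.

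The channel's other subunit genes were near the rounding step at this age. Lrrc8c was 0.001, 0.001, 0.001 and 0.002 in WT libraries and 0.001 or 0.002, 3 times each, in Tau P301S libraries (log2 change 0.1, 95% interval −0.2 to 0.41; limma adjusted p = 0.883). Lrrc8b was 0.003, 0.002, 0.004 and 0.005 in WT and 0.003 to 0.004 in Tau P301S libraries (0.07, 95% interval −0.26 to 0.4; limma adjusted p = 0.942). Lrrc8d was 0.001 to 0.002 in WT and 0.001 to 0.003 in Tau P301S libraries (−0.05, 95% interval −0.43 to 0.33; limma adjusted p = 0.975). None of the 3 separated the groups, and differences below 1 step of 0.001 could not be resolved.

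The genes around Lrrc8c on chromosome 5 were examined for a like difference. Of the nearest 3 measured genes on each side, 4 are outside the family. None of the 6 passed for N40K, nor had an unadjusted p under 0.05 (limma), against 11.7% and 29.1% of all genes. So few genes cannot show whether the difference is local to Lrrc8c. Gbp6, an interferon-induced guanylate-binding protein, was 0.0182 ± 0.00512 in carriers and 0.018 ± 0.00477 in non-carriers (SD, n = 6 each; limma adjusted p = 1). The zinc-finger gene Zfp951 was 0.105 ± 0.00606 in carriers and 0.1 ± 0.0273 in non-carriers. On the other side, Gm15817, which GENCODE M21 names Lrrc8dos, was 0.0377 ± 0.00388 and 0.0415 ± 0.00677, the only one of the 4 with a lower mean in carriers. Zfp326, which encodes an RNA-binding zinc-finger protein, was 0.0253 ± 0.00225 and 0.0228 ± 0.00172 (limma adjusted p = 0.206). Beside Lrrc8a, Phyhd1 was 0.139 ± 0.00668 in carriers and 0.129 ± 0.00901 in non-carriers (limma adjusted p = 0.102, unadjusted p = 0.0211). Ccbl1 was 0.0612 ± 0.00731 and 0.0582 ± 0.00479 (limma adjusted p = 0.676). Beside Lrrc8e, neither BC068157 nor Map2k7 passed (limma adjusted p = 0.347 and 0.0945). Map2k7 was lower in carriers, 0.142 ± 0.00462 against 0.151 ± 0.00455 in non-carriers (limma unadjusted p = 0.0185).

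The genes whose scores followed Lrrc8c most closely over the 12 libraries of 6-month cortex were Kcnk3 (Pearson r = 0.989), Acpl2 (0.983), Entpd6 (0.981), Ica1 (0.98) and Gapdhs (0.979), among 7379 named genes with a mean score of at least 0.02. Kcnk3, a background potassium channel, was 0.067 ± 0.0256 in carriers and 0.0217 ± 0.00137 in non-carriers (SD, n = 6 each). Entpd6, a nucleoside diphosphatase, was 0.0482 ± 0.0195 and 0.0153 ± 0.00137, and Gapdhs, a sperm form of glyceraldehyde-3-phosphate dehydrogenase, was 0.32 ± 0.0263 and 0.237 ± 0.00756. These genes were picked for likeness, the libraries share N40K status and their own median score, and the values are a description. For Lrrc8a the most alike were Fam173b (r = 0.964) and Sfi1 (0.954), for Lrrc8b Ccdc80 (0.914) and Acat3 (0.904), and for Lrrc8d Zfp459 (0.869) and Prpf18 (0.854). Within the family at 6 months, r was 0.862 for Lrrc8a with Lrrc8c and 0.175 to 0.604 for the other 5 pairs, under the same limit of shared N40K status and library median. Over the 10 libraries at 12 months, r was 0.408 for Lrrc8a with Lrrc8c and −0.288 to 0.397 for the other 5 pairs.

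**Figure D5:**
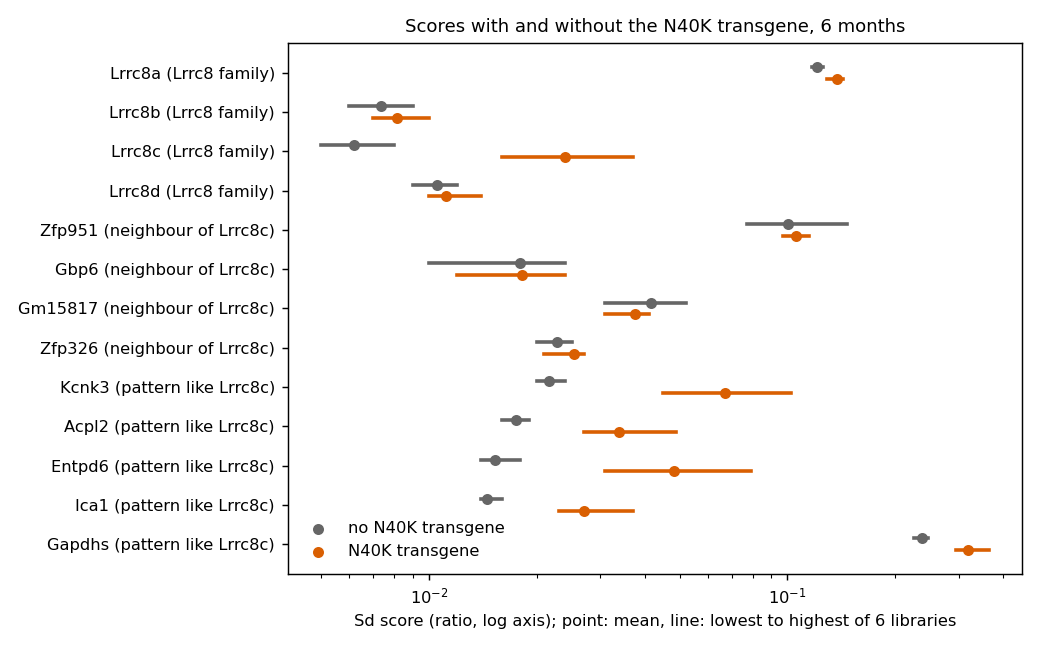
Sd score (ratio, log axis) without (grey) and with (orange) the N40K transgene for the Lrrc8 genes, the 4 measured neighbours of Lrrc8c outside the family and the 5 genes most like it in pattern; points are means and lines run from the lowest to the highest of 6 libraries. The lines of Lrrc8c (0.005 to 0.008 and 0.016 to 0.037) do not meet, as for 5.51% of all genes, and those of the neighbours do.

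Among other anion channels and the pannexins, which share ancestry with the LRRC8 proteins, 4 of 33 measured genes rose with N40K and none fell (limma), against 10.8% of all genes higher and 0.936% lower. At an unadjusted p under 0.05, 13 of the 33 were higher and 0 lower, against 26% and 3.06% of all genes. Clcn2, a chloride channel, went from 0.0628 ± 0.0024 to 0.077 ± 0.00297 (SD, n = 6 each, 1.22-fold; limma adjusted p = 0.00609). The anoctamins Ano4 (0.005 in every non-carrier, 0.006 to 0.007 in carriers) and Ano6 (0.0182 ± 0.00204 to 0.0238 ± 0.00223, limma adjusted p = 0.0182), a lipid scramblase, rose as well. The Ano4 scores had no spread among non-carriers and moved by few steps of 0.001, so the Ano4 calls rest on tied rounded values. Panx2, a pannexin, rose 1.38-fold (limma adjusted p = 0.0466) and is named although the rule took 3 genes a list. The list median was 0.13, against 0.0945 over all genes. Without N40K replicate 1 and dTg replicate 2, 2 of the 33 passed, Clcn2 and Ano4, and none did with library medians set equal (limma; list median −0.01).

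Of 26 genes of cell volume and chloride transport, 4 rose with N40K and none fell (limma), against 10.8% of all genes higher and 0.936% lower. At an unadjusted p under 0.05, 7 of the 26 were higher, near the 26% of all genes, and 0 were lower. The list median was 0.13, against 0.0945 over all genes. Slc12a2, the chloride importer NKCC1, went from 0.012 ± 0.0011 to 0.0192 ± 0.0016 (SD, n = 6 each, 1.51-fold; limma adjusted p = 0.00514), with no overlap between carriers (0.018 to 0.022) and non-carriers (0.011 to 0.013), as for 5.51% of all genes. The anion exchanger Slc4a2 (1.2-fold) and Slc12a1 (1.15-fold; limma adjusted p = 0.0404), the latter again beyond the 3 of the rule, rose too. The mean Slc12a1 score was 0.0973 in N40K and 0.0737 in WT mice, and 0.077 in dTg and 0.0767 in 5xFAD mice. Slc12a2 and Slc4a2 passed without N40K replicate 1 and dTg replicate 2 as well, and Slc12a2 passed with library medians set equal, where the kinase gene Wnk1 was lower (−0.2, limma adjusted p = 0.0454). At equal medians 2 of the 26 passed as higher and 1 as lower, with a list median of −0.00665. Of all 15705 genes 1241 passed there (limma), 57.5% of them higher. In the 5xFAD, interaction and Tau P301S comparisons none of the measured genes of either list passed (limma). At an unadjusted p under 0.05 there were 1, 0 and 1 anion channel genes and 4, 2 and 2 genes of cell volume and chloride transport, against 6.17%, 2.87% and 8.28% of all genes.

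Markers of cortical cell types served only to show whether scores of a cell type moved with the family, since expression levels were not analysed here. With N40K, 1 of 10 neuronal markers (Snap25) and 2 of 8 astrocyte markers (S100b and Slc1a2) rose, 1 of 6 oligodendrocyte markers (Olig2) and 1 of 6 endothelial and pericyte markers (Tek) fell, and none of 6 microglial markers passed (limma; 1 at an unadjusted p under 0.05), against 10.8% of all genes higher and 0.936% lower. Snap25 was 0.003 in every non-carrier and 0.004 to 0.006 in carriers. S100b was 0.002 in every non-carrier and 0.002 to 0.003 in carriers, and Slc1a2 was 0.003 and 0.003 to 0.004. These scores lay near the rounding step of 0.001 and had no spread among non-carriers, so the calls rest on tied rounded values. Snap25, Slc1a2 and Tek also passed without N40K replicate 1 and dTg replicate 2, and Snap25, Olig2 and Tek with library medians set equal. The mean Olig2 score was 0.122 in N40K and 0.131 in WT mice, whose ranges overlapped (0.107 to 0.144 and 0.119 to 0.146). It was 0.124 in dTg and 0.175 in 5xFAD mice. The list medians were 0.15 for neurons, 0.000672 for astrocytes, 0.09 for oligodendrocytes, −0.02 for microglia and −0.06 for endothelial cells and pericytes, against 0.0945 over all genes. The mean scores of these markers lay between 0.000167 and 0.318, and none was 0 in all 6-month libraries. With 5xFAD, 1 of 6 microglial markers fell, Cd68, which encodes a lysosomal protein of phagocytes (0.701-fold, limma adjusted p = 0.0265). Over all genes, 0.0446% passed in either direction. At an unadjusted p under 0.05, 4 of the 6 were lower, against 6.17% of all genes in either direction. The list median was −0.22, against 0.00812 over all genes. No other marker passed for 5xFAD, and none of 36 for the interaction or of 42 for Tau P301S did (limma). At an unadjusted p under 0.05 there were 1 and 3 of these markers, against 2.87% and 8.28% of all genes. The part of the markers in the Lrrc8 scores was not tested.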

How the data were processed

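Cortex RNA was sequenced in 22 libraries, and the authors deposited 1 table of Sd scores for 6 months and 1 for 12 months. The deposited values are a linear ratio per gene and library with 3 decimals; the submitters' processing notes name CASAVA, STAR, BWA, bedtools 2.16.1 and mm9, and the formula, annotation and depth are not given in the sources used here. Group and replicate came from the sample titles. Nothing in the labels says more of how the replicates were raised or collected, so p-values measure the spread between these samples.

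A pseudocount of 0.002 (the 5th percentile of nonzero scores in either table) was added before the log2 transformation, and limma 3.58.1 in R 4.3.3 was fitted to each table with a mean for every group (8 residual degrees of freedom). P-values were two-sided and Benjamini-Hochberg adjusted over all genes, with a threshold of 0.05. Scripts were tested on simulated data. Library medians were left as deposited. No pair of libraries held identical values, and Spearman's rho across genes was 0.977 to 0.989 at 6 months and 0.943 to 0.985 at 12 months.

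The members and lists were chosen with earlier results of these data known. Named genes were the members, the nearest 3 measured genes on each side of Lrrc8c and 1 on each side of Lrrc8a and Lrrc8e, the 5 genes of highest Pearson r with Lrrc8c and 2 for each other member (predicted genes left out), and up to 3 genes of each list that passed, 1 of which is not reported here. Gene models and transcripts were from GENCODE M21 (GRCm38), which held 94.9% of the Ensembl identifiers of the 6-month table. Alternatives were setting library medians equal (centring), other pseudocounts (0.001 and 0.01), a minimum mean score of 0.02, eBayes with a trend, the replicate number as a block, exact permutation tests and leaving out libraries. Replicate numbers did not pair the libraries, so the reported tests have no block.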

Additional observations from a re-analysis of the deposited data

Results flagged for a closer look

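At 12 months, 8 groups were tested for a library far from the others, by the ratio of its gap to the range of the group. Such a library was found in 3. The rate of about 1 in 20 that chance would mark holds for scores without ties. In all 3 groups the other libraries were tied, which sets the ratio at its highest whatever the gap, so that rate does not apply. All 3 were in WT mice. The highest Lrrc8a score was 0.008 against 0.006 in the other 3 libraries, and the highest Lrrc8c score was 0.002 against 0.001. The lowest Lrrc8d score was 0.001 against 0.002. The gaps are 1 or 2 steps of the rounding of the scores, and groups of 3 at 6 months were not tested.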

How the results depend on the processing

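For the 4 Lrrc8 genes, 244 of 272 recomputed values of tested differences kept their direction and their side of the threshold, and 26 changed sign. Only the Lrrc8a difference for N40K had passed, so for the others keeping their side meant only not passing again. The Lrrc8c difference for N40K, which was not tested, ranged from 1.03 to 1.73 over 18 alternatives. Centring each library on its median ended the Lrrc8a call for N40K (0.0474) and turned the sign of the Lrrc8b (−0.00944) and Lrrc8d (−0.063) differences, none of which passed. A pseudocount of 0.01 lowered the Lrrc8c difference for N40K to 1.03. For Lrrc8a in Tau P301S mice (0.369), the exact permutation p, not adjusted over genes, was 0.019. The limma p was 0.00895 before and 0.422 after adjustment over all genes, so only the adjusted value lay above 0.05. Differences near 0 changed sign when 1 library was left out: for 5xFAD, Lrrc8b ranged from −0.071 to 0.0439 and Lrrc8c from −0.184 to 0.138. For the interaction, Lrrc8b ranged from −0.171 to 0.0663, Lrrc8c from −0.469 to 0.176 and Lrrc8d from −0.039 to 0.122. For Tau P301S, Lrrc8b ranged from −0.0741 to 0.195 and Lrrc8d from −0.154 to 0.00213. Without N40K replicate 1 and dTg replicate 2 together, Lrrc8b for 5xFAD was 0.00242 and the Lrrc8d interaction −0.0582. The cause of these changes was not tested.

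Counts over all genes moved more. For N40K 1838 genes passed (92% higher), 1241 after centring (57.5% higher), 832 at a mean score of at least 0.02, 889 with the replicate block, 749 without the 2 libraries named, and 813 to 2352 with 1 library left out. Lower counts followed without WT replicate 1 (965) or 2 (813), N40K replicate 1 (1058), 5xFAD replicate 1 (1173) or 3 (832) or dTg replicate 2 (947). For 5xFAD 7 genes passed, 11 after centring, 0 at a pseudocount of 0.01, 1 under the minimum score, 2 with the replicate block, 38 without the 2 libraries and 5 to 21 with 1 left out. For the interaction 3 passed, with 0 after centring, at a pseudocount of 0.01, under the minimum score and with the replicate block, 5 with a trend, 22 without the 2 libraries and 1 to 14 with 1 left out. For Tau P301S 1 passed, with 0 after centring, at a pseudocount of 0.01 and with the block, 3 under the minimum score and 1 to 5 with 1 left out. The replicate block changed no call of an Lrrc8 gene: same-numbered libraries correlated in their deviations at −0.0214 on average at 6 months (18 pairs) and −0.0282 at 12 months (4 pairs). The minimum score left only Lrrc8a at 6 months and no Lrrc8 gene at 12 months. Counts of list members without the 2 libraries and after centring were added after the data had been examined.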
